A study of Mus musculus with 6 samples.

Results

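Guanylate-binding proteins (GBPs) and immunity-related GTPases (IRGs) are large GTPases that cells make in quantity after interferon gamma. The members described here are the 10 genes Gbp2, Gbp3, Gbp5, Gbp7, Gbp8, Gbp9, Igtp, Irgm1, Irgm2 and Iigp1, taken by symbol from the gene annotation, out of 55487 genes in the count tables. They comprise 6 GBPs and 4 IRGs, and all 10 passed the filter on low counts that left 14140 genes for testing. The question was whether the family moves together between the sorted populations, or Gbp8 alone does.

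The libraries are total RNA, depleted of ribosomal RNA, from macrophages of Lewis lung carcinoma, a transplantable mouse lung cancer line grown subcutaneously in C57BL/6 mice and collected between day 15 and day 17. F4/80+ CD11b+ cells that were Ly-6G- and Ly6C- were sorted into an MHC-II high and an MHC-II low population, with 3 libraries of each label, and no age, sex or further treatment is given in the labels. The labels do not state whether replicates are separate mice, and the p-values then measure only spread between libraries, possibly technical. The replicate number of a library is also its batch number.

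The transcripts of MHC class II went against the labels. H2-Aa, a class II alpha chain, had 4.40, 5.48 and 6.69 CPM, the count relative to the scaled library size, in labelled MHC-II high libraries, against 1377, 1166 and 1506 CPM in labelled MHC-II low libraries. Every direction below therefore refers to the label only. Reads in genes ran from 15159356 to 25473051 in labelled MHC-II high libraries and from 10202879 to 21290781 in labelled MHC-II low libraries. Labelled MHC-II low replicate 3 was unlike the rest, since an rRNA copy took 47.3% of its reads in genes, against 3.85% to 13.5% in the other 5. The macrophage markers Adgre1, Csf1r, Lyz2 and C1qb were abundant in every library, from 151 CPM upwards.

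In an infected cell, interferon gamma acts through its receptor and JAK kinases to induce transcription factors such as IRF1, which drives the GTPase genes. GBPs carry a GTPase domain and a helical bundle, assemble on pathogen vacuoles and bacterial surfaces, and help to open them to caspase-11 and other inflammasome sensors. In mice, IRGs attack vacuoles too: the effector Iigp1 loads onto them, while the regulators Irgm1, Irgm2 and Igtp sit on the cell's own membranes and hold effectors inactive there. In tumour macrophages both families are read as a mark of exposure to interferon.

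The promoters of 4 members are shown because they carry the elements through which interferon factors are known to act. They are RefSeq sequences of GRCm38.p6, from 250 bases before to 50 bases after the start of the gene, on the strand of the gene. The capitals mark the core of the interferon-stimulated response element, GAAANNGAAA on either strand, and the gamma-activated site, TTCNNNGAA. Gbp2 lies at chr3:142620413-142620712 and Gbp3 at chr3:142559794-142560093 on the plus strand, Irgm1 at chr11:48871371-48871670 on the minus strand and Igtp at chr11:58199306-58199605 on the plus strand.
Gbp2: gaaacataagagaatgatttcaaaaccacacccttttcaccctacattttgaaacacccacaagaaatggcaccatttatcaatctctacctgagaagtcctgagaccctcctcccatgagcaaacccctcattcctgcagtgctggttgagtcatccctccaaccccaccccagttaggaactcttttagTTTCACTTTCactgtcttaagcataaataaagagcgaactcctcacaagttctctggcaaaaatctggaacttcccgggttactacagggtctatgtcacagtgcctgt
Gbp3: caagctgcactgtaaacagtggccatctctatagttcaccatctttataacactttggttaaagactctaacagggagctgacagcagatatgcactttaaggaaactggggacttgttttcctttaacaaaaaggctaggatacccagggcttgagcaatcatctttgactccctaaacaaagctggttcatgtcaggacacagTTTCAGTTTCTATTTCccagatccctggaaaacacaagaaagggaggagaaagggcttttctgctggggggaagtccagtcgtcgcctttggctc
Irgm1: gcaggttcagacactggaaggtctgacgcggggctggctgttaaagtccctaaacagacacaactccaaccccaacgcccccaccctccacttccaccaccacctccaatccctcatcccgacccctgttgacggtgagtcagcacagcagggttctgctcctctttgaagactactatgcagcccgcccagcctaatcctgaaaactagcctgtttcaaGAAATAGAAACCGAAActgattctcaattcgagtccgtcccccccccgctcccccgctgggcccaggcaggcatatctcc
Igtp: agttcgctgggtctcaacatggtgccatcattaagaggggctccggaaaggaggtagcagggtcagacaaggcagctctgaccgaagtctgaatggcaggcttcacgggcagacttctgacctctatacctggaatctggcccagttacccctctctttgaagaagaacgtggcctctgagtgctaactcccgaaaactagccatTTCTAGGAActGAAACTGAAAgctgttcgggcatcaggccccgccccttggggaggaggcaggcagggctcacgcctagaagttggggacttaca

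The response element core was found in a promoter of 7 of the 7 members that have one in the RefSeq table, against 3.44% of 32851 mouse promoters of the same length. The table gives Gbp3 a second start, whose promoter lacks it, so that 7 of 8 promoters held it. Gbp3 and Irgm1 hold it as 3 repeats in a row, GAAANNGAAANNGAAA, which 0.116% of promoters hold, and its cores overlap there. The gamma-activated site was found in Gbp5, Gbp7, Igtp and Irgm2, against 8.3% of promoters. In Igtp and Irgm2, 2 bases separate it from the response element. Counted from the start of the gene, the cores began between positions -165 and -24. These matches describe letters in the window and were not tested as binding sites. Promoters of Gbp8, Gbp9 and Iigp1 were not analysed here.

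Across the family, 1 of 10 members passed the test, and it fell: Gbp8. The test was the quasi-likelihood test of edgeR with Benjamini-Hochberg adjustment over all tested genes, and a gene is called below where its adjusted p was under 0.05. Over all tested genes 0.354% were called as lower in labelled MHC-II high libraries and 0.0919% as higher. The log2 fold change, labelled MHC-II high over labelled MHC-II low, was below 0 for 9 of the 10 members, as it was for 51.5% of all tested genes. Its median over the members was -0.25, against -0.02 over all tested genes. Scaling by total counts moved the median of all tested genes to 0.25 and that of the members to -0.02, with the sign of Gbp2, Igtp, Irgm1 and Iigp1 turned round. Apart from Gbp8 the members lay between -0.95 and 0.00040. With an offset for the GC content of genes, edgeR gave the members a median of -0.40, against -0.03 over all tested genes. In that fit the members apart from Gbp8 lay between -1.23 and -0.16. In 3 members, Gbp8, Gbp9 and Gbp7, every library labelled MHC-II high lay below every library labelled MHC-II low, which held for 9.48% of all tested genes. Without labelled MHC-II low replicate 3, the library rich in rRNA, the median of the members was -0.33 and 0 of 10 were called by edgeR, with Gbp8 at an adjusted p of 0.05001. In bulk libraries, fewer cells of a type and less RNA per cell cannot be told apart.

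**Figure D1:**
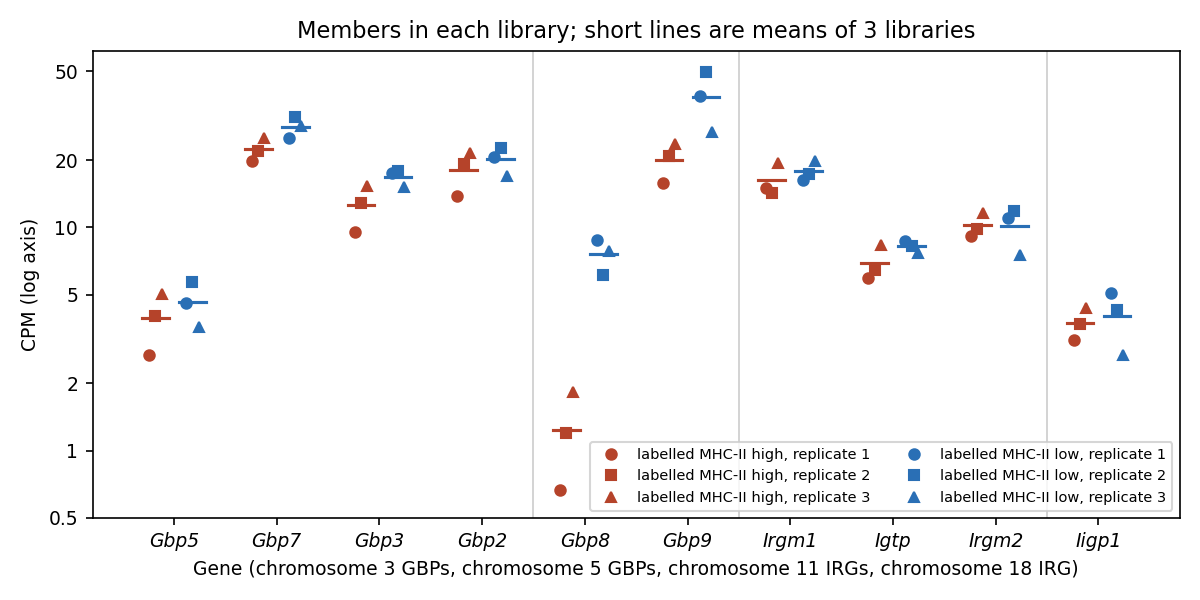
CPM of each member (log axis) in the 3 libraries labelled MHC-II high (red, left of each pair) and the 3 labelled MHC-II low (blue), with marker shapes for replicates and short lines for means. Gbp8 has a mean of 1.23 CPM in labelled MHC-II high libraries and 7.57 CPM in labelled MHC-II low libraries, with a wide gap between them, while the points of Gbp2, Gbp3, Gbp5 and of all 4 IRGs overlap.

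Gbp8, a little studied GBP of the chromosome 5 cluster, had 0.668, 1.20 and 1.82 CPM in labelled MHC-II high libraries, from 12, 27 and 51 reads. In labelled MHC-II low libraries it had 8.74, 6.13 and 7.85 CPM, from 164, 150 and 44 reads. The lowest library labelled MHC-II low thus stood above the highest labelled MHC-II high in CPM by a wide margin. Its mean was 1.23 ± 0.578 CPM in labelled MHC-II high libraries and 7.57 ± 1.32 CPM in labelled MHC-II low libraries (SD, n = 3 each), a ratio of 0.163. The log2 fold change was -2.58 (SE 0.38, 95% interval -3.47 to -1.70), with an adjusted p of 0.0396 from edgeR. Within batches 1, 2 and 3 the log2 ratio was -3.71, -2.35 and -2.11, so the direction was shared by every batch. Its place among the 10 members, the lowest log2 fold change, held under each of 17 alternative settings, with values between -2.98 and -2.29.

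The call of Gbp8 depended on single libraries and on the batch term. With the replicate block its adjusted p in edgeR was 0.0609, beside 0.283% of all tested genes called as lower in that fit. Left out in turn, labelled MHC-II high replicates 1, 2 and 3 gave adjusted p-values of 0.125, 0.241 and 0.0663 in edgeR. Leaving out labelled MHC-II low replicates 1, 2 and 3 gave 0.234, 0.00986 and 0.05001 in edgeR. The share of all tested genes called as lower moved as well, from 0.354% with all libraries. It was 0.061%, 0.0553% and 0.0967% without labelled MHC-II high replicates 1, 2 and 3. Without labelled MHC-II low replicates 1, 2 and 3 it was 0.0948%, 5.45% and 0.369%.

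Gbp9, the next gene of that cluster, whose product has been seen at Toxoplasma vacuoles in mouse cells, had 15.8, 20.8 and 23.5 CPM in labelled MHC-II high libraries. It had 38.8, 49.8 and 26.8 CPM in labelled MHC-II low libraries. The labels did not overlap, but the library labelled MHC-II low replicate 3 came close to the highest labelled MHC-II high. The log2 fold change was -0.95 (SE 0.27, adjusted p = 0.246 from edgeR), and within batches 1, 2 and 3 the log2 ratio was -1.30, -1.26 and -0.19. With an offset for the GC content of genes, edgeR gave Gbp9 a log2 fold change of -1.23 and an adjusted p of 0.0017, which passed the test, beside 1.7% of all tested genes called as lower in that fit, and 0.0035 with the replicate block added, a fit that called 2.66% as lower and 1.2% as higher. The members have GC contents of 39.3% to 49.5%, with a median of 45.8%, against a median of 48.7% over tested genes. The libraries differed in their trend over GC content, from -0.58 to -0.0892 log2 units per 10 percentage points in labelled MHC-II high libraries and from -0.466 to 0.697 in labelled MHC-II low libraries.

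Gbp8 and Gbp9 lie in one stretch of chromosome 5 on the minus strand together with Gbp4, a GBP that is not among the 10 members. In GRCm38 Gbp8 spans chr5:105014150-105139540, Gbp9 chr5:105077630-105139539 and Gbp4 chr5:105115767-105139586. In GENCODE M21 first exons of all 3 genes share 60 bases, chr5:105139480-105139539, in 1 of 4 transcripts of Gbp8, 1 of 4 of Gbp9 and 6 of 6 of Gbp4. The nearest other start lies 29.3 kb downstream for Gbp9 and 86.0 kb downstream for Gbp8. A count per gene does not tell which start was used.

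**Figure D2:**
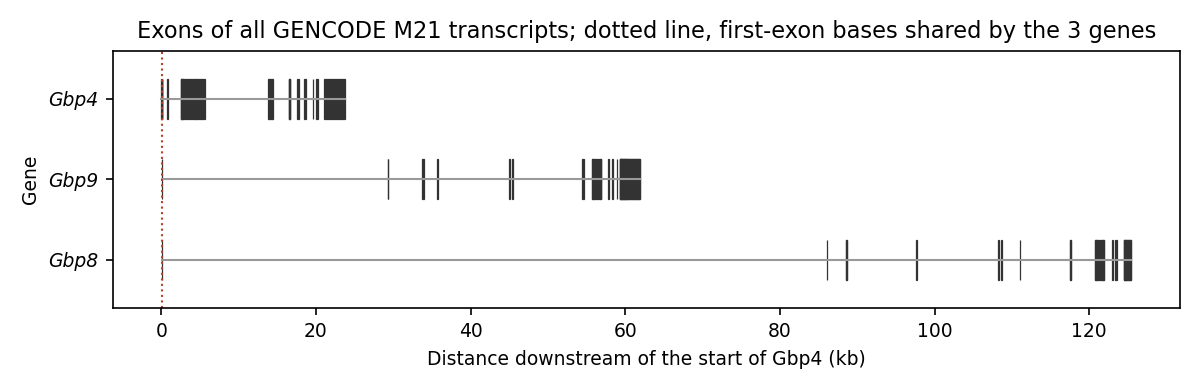
Exons (dark boxes) of all annotated transcripts of Gbp4, Gbp9 and Gbp8, drawn against the distance downstream of the start of Gbp4 in kb. The dotted line marks the 60 bases that first exons of the 3 genes share, after which the exons of Gbp9 resume at 29.3 kb and those of Gbp8 at 86.0 kb.

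Gbp4 was set beside them for this reason, and was listed with the other GBP genes that are not members. It had 0.779, 1.92 and 2.75 CPM in labelled MHC-II high libraries, against 5.43, 8.79 and 5.17 CPM in labelled MHC-II low libraries. The labels did not overlap. Its log2 fold change was -1.82 (SE 0.45), with an adjusted p of 0.192 from edgeR, which did not pass the test. The offset for GC content gave Gbp4 -2.10 with an adjusted p of 0.0187, and DESeq2 gave an adjusted p of 0.00754. The 95% interval of Gbp4, -2.86 to -0.79, overlapped that of Gbp8, and the interval of Gbp9, -1.56 to -0.33, lay just above that of Gbp8.

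The coding sequences of the 3 genes are near copies in places, which bears on how reads can be told apart. The stretch shown holds coding bases 115 to 174 around the nucleotide-binding loop, from GRCm38 on the minus strand, and capitals mark bases that differ from Gbp8. It lies at chr5:105050874-105050933 in Gbp8, chr5:105105674-105105733 in Gbp9 and chr5:105136848-105136907 in Gbp4.
Gbp8: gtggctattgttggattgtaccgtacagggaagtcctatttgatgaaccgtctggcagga
Gbp9: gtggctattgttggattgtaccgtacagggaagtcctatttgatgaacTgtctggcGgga
Gbp4: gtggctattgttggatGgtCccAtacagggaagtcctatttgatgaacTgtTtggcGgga

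Gbp9 differs from Gbp8 at 2 of these 60 bases and Gbp4 at 6. Over whole exons, 18.1% of the 50-base words of Gbp8 also occur in another gene, most often in Gbp11 with 7.37%. The share was 8.05% for Gbp9 and 7.7% for Gbp4. Among the other members it was 12.7% for Gbp7, 11.8% for Igtp and 7.77% for Irgm2, and no more than 3.75% for the remaining 5. Reads from such stretches may be set aside or credited to a copy, so values of Gbp8, Gbp9 and Gbp4 carry this uncertainty.

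Within each library, Gbp8 could be set against its relatives without any scaling between libraries. Its log2 CPM minus the mean log2 CPM of the other 9 members was -3.70, -3.12 and -2.79 in labelled MHC-II high libraries, against -0.60, -1.22 and -0.47 in labelled MHC-II low libraries. The difference between the labels was -2.44. Per 100 reads of Gbp9 there were 4.24, 5.78 and 7.76 reads of Gbp8 in labelled MHC-II high libraries and 22.5, 12.3 and 29.3 in labelled MHC-II low libraries. Neither measure overlapped between the labels, and with 3 libraries against 3 an exact permutation test could not go below 0.1.

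The same was done against the mean of the 8 members outside chromosome 5, which itself was 3.27 ± 0.266 log2 CPM in labelled MHC-II high libraries and 3.48 ± 0.175 in labelled MHC-II low libraries (SD, n = 3 each). Relative to it, the log2 difference between the labels was -2.52 for Gbp8, -1.77 for Gbp4 and -0.71 for Gbp9. All 3 genes of the shared stretch were lower against the rest of the family in every library labelled MHC-II high than in any labelled MHC-II low.

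**Figure D3:**
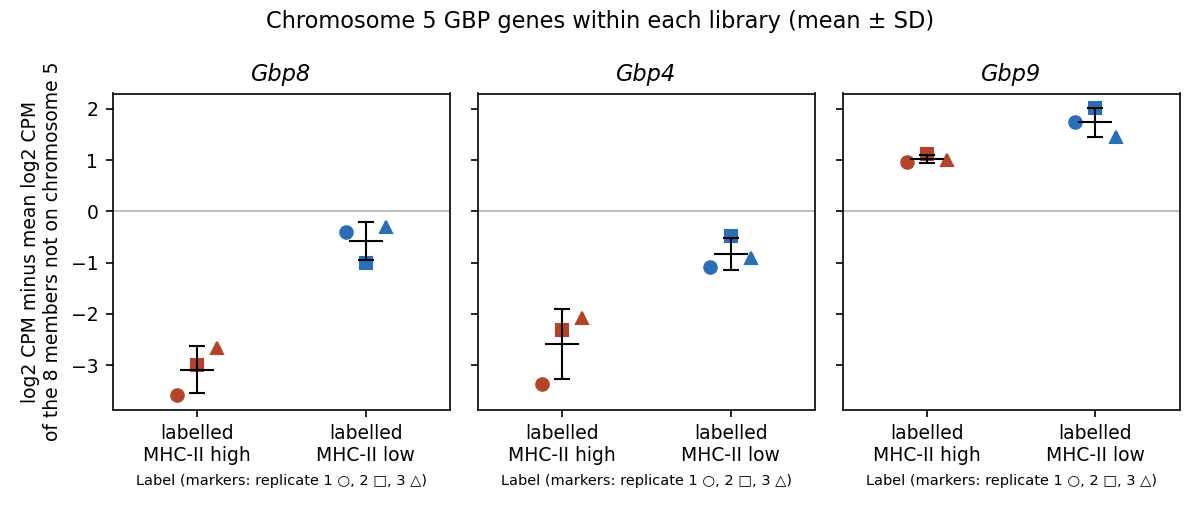
log2 CPM of Gbp8, Gbp4 and Gbp9 minus the mean log2 CPM of the 8 members outside chromosome 5, for each library, with bars for mean ± SD of 3 libraries. The values labelled MHC-II high (left, red) lie below the values labelled MHC-II low in each panel, with mean differences of -2.52, -1.77 and -0.71.

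The remaining GBPs, Gbp5, Gbp7, Gbp3 and Gbp2 in that order, form a cluster on the plus strand of chromosome 3, at chr3:142493978-142638008 in GRCm38. None of these 4 members passed the test, with DESeq2 and limma-voom calling none either beside 1.96% and 0.297% of all tested genes called as lower, and none had an unadjusted p below 0.05 in edgeR. Gbp2, which a lipid anchor can hold on vacuole membranes, had 13.8, 19.1 and 21.4 CPM in labelled MHC-II high libraries and 20.7, 22.7 and 16.9 CPM in labelled MHC-II low libraries. Gbp5, known for its part in inflammasome activation, had 2.67, 4.01 and 5.04 CPM in labelled MHC-II high libraries, against 4.58, 5.68 and 3.57 CPM in labelled MHC-II low libraries. For both genes the labels overlapped, and the library labelled MHC-II high replicate 1 was the lowest of the 6. The log2 fold change was -0.16 (95% interval -0.69 to 0.37) for Gbp2 and -0.26 (95% interval -0.99 to 0.48) for Gbp5.

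Gbp3, another GBP seen at Toxoplasma vacuoles, had 9.57, 12.8 and 15.4 CPM in labelled MHC-II high libraries, against 17.5, 17.8 and 15.2 CPM in labelled MHC-II low libraries. Gbp7, linked in mouse to assembly of the phagocyte NADPH oxidase, had 19.9, 22.1 and 25.0 CPM in labelled MHC-II high libraries, against 25.2, 31.1 and 28.4 CPM in labelled MHC-II low libraries. Gbp7 just failed to overlap between the labels, while in Gbp3 a single library on each side crossed. The log2 fold change was -0.42 (SE 0.23, adjusted p = 0.462) for Gbp3 and -0.34 (SE 0.19, adjusted p = 0.464) for Gbp7 (edgeR). The 95% intervals, -0.95 to 0.11 and -0.77 to 0.10, leave room for a decrease of that size or for little difference. With the GC offset edgeR gave Gbp3 -0.62 (adjusted p = 0.0992) and Gbp7 -0.66 (adjusted p = 0.110). With the replicate block added to it, the adjusted p-values in edgeR were 0.0685 and 0.0735. Neither fit called a GBP of chromosome 3. In the annotation Gbp7 shares 11.4% of its exon bases with Gm43802 on the same strand, so part of its reads could not be told apart.

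Among the IRGs no member passed the test, 0 of 4 had an unadjusted p below 0.05 in edgeR, and DESeq2 and limma-voom called 0. The effector Iigp1 had 3.12, 3.70 and 4.36 CPM in labelled MHC-II high libraries, against 5.06, 4.25 and 2.68 CPM in labelled MHC-II low libraries. The regulator Irgm1 had 15.0, 14.3 and 19.5 CPM in labelled MHC-II high libraries and 16.3, 17.3 and 19.8 CPM in labelled MHC-II low libraries. In these 2 genes the labels overlapped widely, with log2 fold changes of -0.13 (95% interval -0.83 to 0.57) for Iigp1 and -0.12 (95% interval -0.60 to 0.36) for Irgm1.

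Irgm2, a regulator found on Golgi membranes, had 9.18, 9.85 and 11.6 CPM in labelled MHC-II high libraries and 10.98, 11.8 and 7.495 CPM in labelled MHC-II low libraries. Igtp, also called Irgm3, a regulator of the endoplasmic reticulum and lipid droplets, had 5.96, 6.42 and 8.33 CPM in labelled MHC-II high libraries and 8.69, 8.26 and 7.67 CPM in labelled MHC-II low libraries. Their log2 fold changes were 0.00040 (95% interval -0.57 to 0.57) for Irgm2 and -0.25 (95% interval -0.79 to 0.28) for Igtp. The annotation gives these neighbours of chromosome 11 a shared 8.01% of the exon bases of Igtp and 4.39% of those of Irgm2 on the same strand.

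**Figure D4:**
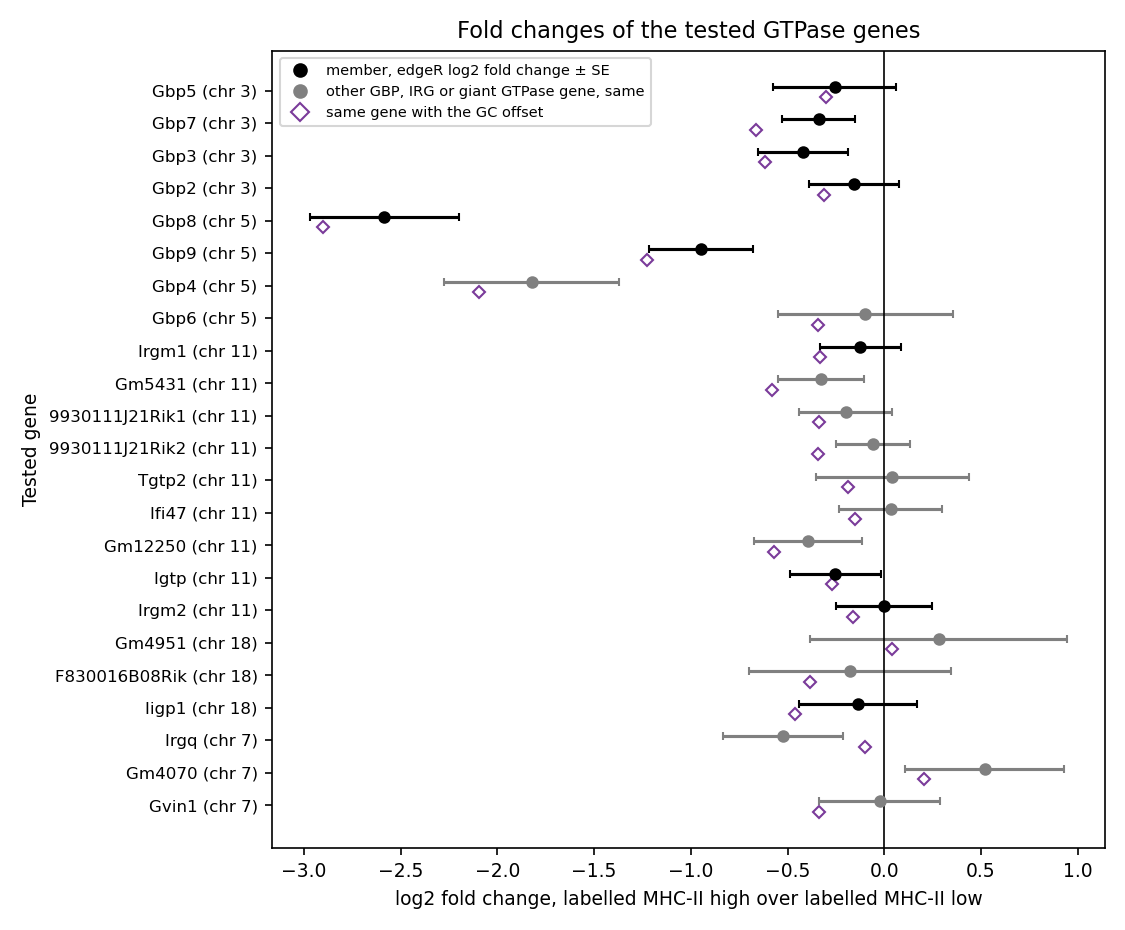
log2 fold change, labelled MHC-II high over labelled MHC-II low, with its SE for the members (black) and the other tested GBP, IRG and giant GTPase genes (grey), ordered by chromosome, and the value with the GC offset (open diamonds). Gbp8 at -2.58, Gbp4 at -1.82 and Gbp9 at -0.95 stand to the left, and every other gene lies between -0.52 and 0.52.

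The libraries of a label also differed among themselves in a way that many members shared. Among labelled MHC-II high libraries, replicate 3 was the highest for 10 of 10 members and replicate 1 the lowest for 9 of 10, against 36.5% and 38.1% of all tested genes. In labelled MHC-II low libraries, replicate 3 was the lowest for 7 members and replicate 2 the highest for 6, against 43.8% and 41.9% of tested genes. In summed CPM the 6 GBPs came to between 62.3 and 92.1 in labelled MHC-II high libraries and between 98.7 and 133 in labelled MHC-II low libraries. The 4 IRGs came to between 33.3 and 43.7 in labelled MHC-II high libraries and between 37.6 and 41.6 in labelled MHC-II low libraries. The sum of the 6 GBPs, which includes Gbp8 and Gbp9, did not overlap between the labels, while that of the IRGs did. Of the GBPs outside chromosome 5, Gbp2, Gbp3 and Gbp5 overlapped when taken singly and Gbp7 did not. The sums do not tell whether the GBPs differed as a group, which was not tested. In edgeR the log2 fold change was below 0 for 6 of 6 GBPs and 3 of 4 IRGs, beside 51.5% of all tested genes. Its median was -0.38 over the GBPs and -0.13 over the IRGs, against -0.02 over all tested genes. With the GC offset these medians were -0.64 and -0.30, against -0.03.

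Per length of merged exons, in CPM per kilobase (RPKM), Gbp2 was the most abundant member under both labels, with 7.19 ± 1.56 RPKM in labelled MHC-II high libraries and 7.998 ± 1.16 RPKM in labelled MHC-II low libraries (SD, n = 3 each). In labelled MHC-II high libraries, Gbp7, Gbp9, Gbp3 and Igtp followed with means of 3.97, 3.87, 3.85 and 3.41 RPKM, which lay within their spreads of one another, and then Irgm1 and Irgm2 with 2.80 and 2.76 RPKM. At the low end stood Iigp1 with 0.640 ± 0.107, Gbp5 with 0.589 ± 0.179 and Gbp8 with 0.358 ± 0.168 RPKM. Gbp8 was thus the least abundant of the 10 there, although its spread reached that of Gbp5.

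In labelled MHC-II low libraries the order was Gbp2, Gbp9 with 7.43 ± 2.22 RPKM, Gbp3 with 5.15, Gbp7 with 5.03, Igtp with 4.06, Irgm1 with 3.06 and Irgm2 with 2.73 RPKM. Gbp8 followed with 2.20 ± 0.385 RPKM, above Gbp5 with 0.695 ± 0.159 and Iigp1 with 0.686 ± 0.208 RPKM. Gbp2 and Gbp9 lay within their spreads, as did Gbp3 and Gbp7, Irgm1 and Irgm2, and Gbp5 and Iigp1. Gbp8 stood apart from Gbp5 and Iigp1 by more than their spreads.

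Of 5 other GBP genes, Gbp4 and Gbp6 were tested and neither was called by edgeR. Gbp6 also lies on the minus strand of chromosome 5, at chr5:105270702-105293698, outside the stretch of Gbp8, Gbp9 and Gbp4. It had 0.712 ± 0.221 CPM in labelled MHC-II high libraries and 0.802 ± 0.235 CPM in labelled MHC-II low libraries (SD, n = 3 each). The labels of Gbp6 overlapped, and its log2 fold change was -0.10 (SE 0.45). Within batches 1, 2 and 3 its log2 ratio was 0.29, 0.36 and -1.20. Of its 50-base words, 70.7% occur in other genes. Gbp10 had no read in any library, and Gbp2b and Gbp11 had 4 and 2 reads in labelled MHC-II high libraries and 3 and 2 in labelled MHC-II low libraries.

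Of 15 other IRG and giant GTPase genes 11 were tested, with 0 called in either direction, beside 0.446% of all tested genes. In edgeR 0 of the 11 had an unadjusted p below 0.05, and DESeq2 and limma-voom called 0. Their median log2 fold change was -0.06. Ifi47, an IRG effector, had 6.38 ± 1.15 CPM in labelled MHC-II high libraries and 6.16 ± 1.33 CPM in labelled MHC-II low libraries. Gm12250, an IRG also known as Irgb10, had 2.80 ± 0.614 CPM in labelled MHC-II high libraries and 3.70 ± 0.325 CPM in labelled MHC-II low libraries. For Tgtp2, another IRG, the values were 1.32 ± 0.304 CPM in labelled MHC-II high libraries and 1.22 ± 0.442 CPM in labelled MHC-II low libraries. Irgq had the lowest value of the list, -0.52 (SE 0.31), and Gm4070, a copy of the giant GTPase Gvin1, the highest, 0.52 (SE 0.41). The log2 fold change was -0.02 for Gvin1, -0.06 for 9930111J21Rik2, -0.20 for 9930111J21Rik1, -0.33 for Gm5431, -0.17 for F830016B08Rik and 0.28 for Gm4951. Of the 50-base words of these genes, 99.2% of Gvin1, 97.8% of Gm4070, 86.6% of Tgtp2, 82.9% of 9930111J21Rik1, 59.2% of 9930111J21Rik2 and 37.3% of Gm5431 occur in another gene too, so their values are uncertain.

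The pathway that induces the GTPases was described from lists written with earlier results of these data known. In the lists below, counts at an unadjusted p below 0.05 stand without the share of all tested genes, which was not computed. The ligand gene Ifng had no read in any of the 6 libraries. Its receptor chains Ifngr1 and Ifngr2 and the kinases Jak1 and Jak2 were all tested, and 0 of 4 were called by edgeR, DESeq2 or limma-voom or had an unadjusted p below 0.05 in edgeR. Their log2 fold changes lay between -0.12 and 0.04. Ifngr1 had 137, 123 and 129 CPM in labelled MHC-II high libraries, against 150, 169 and 104 CPM in labelled MHC-II low libraries.

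Of 11 transcription factors downstream of the receptor, 1 was called as lower, beside 0.354% of all tested genes: Ciita, the master coactivator of MHC class II. Ciita had 0.501, 1.20 and 1.25 CPM in labelled MHC-II high libraries, against 87.2, 53.9 and 119 CPM in labelled MHC-II low libraries, a log2 fold change of -6.41. Irf1, a factor that drives the GTPase genes, was not called, with a log2 fold change of -0.33 (SE 0.31). Batf2, Stat3 and Nlrc5 had -1.28, -0.53 and -0.70, and with the GC offset -0.79, -0.34 and -0.47. The median of the 11 was -0.47, and -0.31 with the GC offset. Of 10 feedback inhibitors 0 were called by edgeR, with 4 lower at an unadjusted p below 0.05, a count with no share beside it. Socs2 alone was called as lower by DESeq2 and, in edgeR, with the GC offset and the replicate block (adjusted p = 0.0141). Those fits called 1.96% and 2.66% of all tested genes as lower. The median of the 10 inhibitors was -0.53, and -0.22 with the GC offset. The suppressors Socs1, Socs2 and Cish had -1.70, -1.23 and -1.51, while the phosphatase Ptpn1 had -0.85. With the GC offset edgeR gave Socs1 -1.14, Socs2 -1.47, Cish -1.21 and Ptpn1 -0.40.

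Among 22 tested targets of interferon gamma other than the GTPases and class II, 0 were called by edgeR, where 5 were lower and 1 higher at an unadjusted p below 0.05, and limma-voom called 0. DESeq2 called Cxcl9, Tap1 and Slamf8 as lower, beside 1.96% of all tested genes, and Acod1 as higher, beside 0.856%. The median was -0.29, and -0.21 with the GC offset. The chemokine Cxcl9, the peptide transporter Tap1 and the receptor Slamf8 had log2 fold changes of -1.68, -1.28 and -1.57, and Acod1, the enzyme that makes itaconate, had 1.33. With the GC offset edgeR called Tap1 as lower, at -0.78 (adjusted p = 0.0273), beside 1.7% of all tested genes. In that fit Acod1 was called as higher (adjusted p = 0.0262), beside 0.877% of all tested genes. With the replicate block added to the offset, edgeR called Cxcl9, Tap1, Slamf8 and Cd274 as lower and Acod1 as higher. The shares of all tested genes called in that fit were 2.66% as lower and 1.2% as higher. Of 24 genes best known as type I interferon targets 0 were called by edgeR, DESeq2 or limma-voom, with 5 lower at an unadjusted p below 0.05 in edgeR. Their median was -0.20, and -0.38 with the GC offset. Rtp4, Oas3, Oasl2 and Mx1 had -0.86, -1.003, -0.67 and -0.61 without it. With the GC offset and the replicate block edgeR called 5 of the 24 as lower, Mx1, Oasl2, Oas2, Trim30a and Rtp4, beside the 2.66% of all tested genes.

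Partners of the GTPase proteins were taken as further lists. Of 10 inflammasome genes 1 was called as lower, beside 0.354% of all tested genes: Il1b, which encodes the cytokine interleukin-1 beta. It had 42.0, 48.7 and 63.5 CPM in labelled MHC-II high libraries, against 144, 193 and 138 CPM in labelled MHC-II low libraries. Its log2 fold change was -1.62, with an adjusted p of 0.0311 from edgeR. That call was lost with the replicate block (adjusted p = 0.0742) and with scaling by total counts (adjusted p = 0.296) in edgeR. Leaving out 1 library gave Il1b adjusted p-values from 0.00986 to 0.25 in edgeR. The call was lost without any 1 of the labelled MHC-II high libraries and without labelled MHC-II low replicate 1. The fits that lost it in this way called only 0.0553% to 0.0967% of all tested genes as lower. Casp1, Casp4, Aim2 and Gsdmd were not called, nor was Il18, with 0.79, and the median was 0.06. Of 14 genes of ATG8 conjugation, which loads GBPs and IRGs on vacuoles, 0 were called, with a median of 0.04. Map1lc3a and Gabarap, ATG8 proteins, had -0.99 (SE 0.45) and -0.37 (SE 0.17). Of 6 genes of prenylation, which attaches the lipid anchor of some GBPs, 0 were called, with a median of -0.04. For 9 other dynamin-type GTPases 0 were called and the median was 0.22, with Opa1, a mitochondrial fusion GTPase, at 0.59 (SE 0.17). In these 3 lists DESeq2 and limma-voom also called 0, and at an unadjusted p below 0.05 edgeR had 0, 0 and 1. Dnm1, a dynamin, had a log2 fold change of 0.69 in edgeR without an offset. It was called by edgeR with the GC offset, at 1.14 with an adjusted p of 0.0187, and with the replicate block added, with an adjusted p of 0.00383. Those fits called 0.877% and 1.2% of all tested genes as higher.

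**Figure D5:**
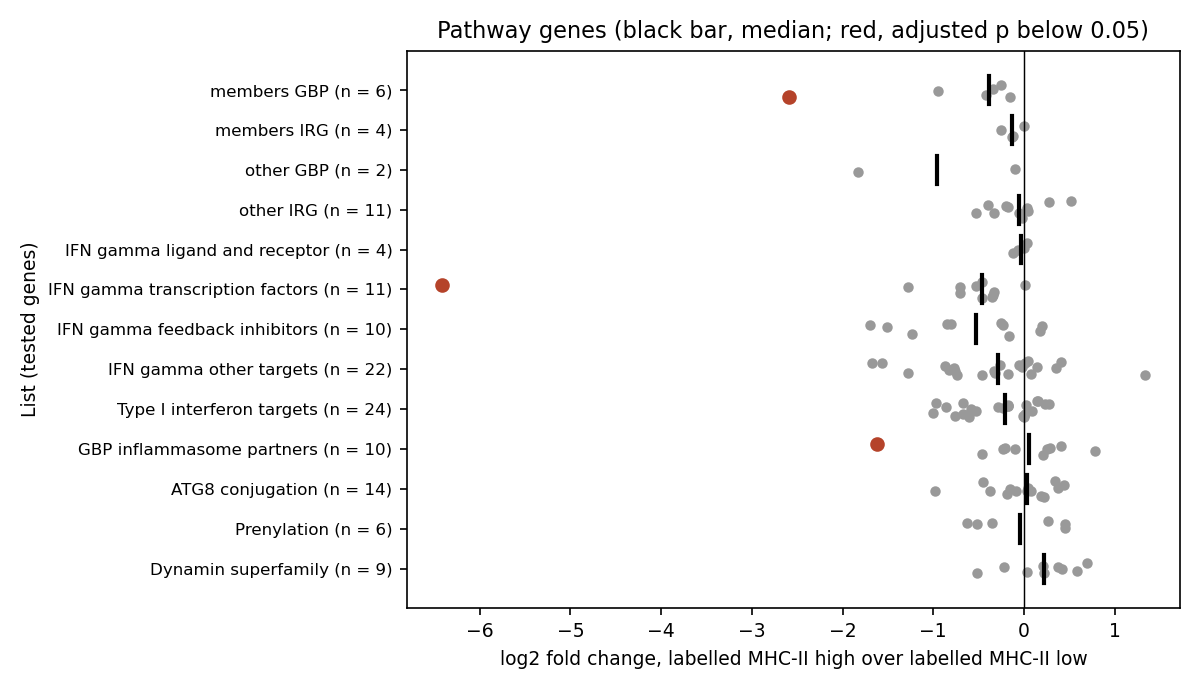
log2 fold change, labelled MHC-II high over labelled MHC-II low, of every tested gene in each list (points), with the median of the list as a black bar and called genes in red. The lists are those of the family, its pathway and its partners, without the marker and MHC class II lists. Gbp8, Ciita and Il1b are the called genes among these lists, whose medians lie between -0.96 in the other GBPs and 0.22 in the dynamin superfamily.

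MHC class II genes and dendritic cell markers were lower in labelled MHC-II high libraries than in labelled MHC-II low libraries. All 7 MHC class II genes were called as lower, at a median of -6.41 on the log2 scale. Of 10 tested dendritic cell markers 4 were called as lower, Itgax, Flt3, Ccr7 and Ccl22, beside 0.354% of all tested genes. For all 10 of these markers every labelled MHC-II high library lay below every labelled MHC-II low library, beside 9.48% of all tested genes. Their summed level, over 14 genes, ran from 60.05 to 103 CPM in labelled MHC-II high libraries and from 307 to 439 CPM in labelled MHC-II low libraries. B cell markers summed to between 2.23 and 2.90 CPM in labelled MHC-II high libraries and between 6.54 and 13.03 CPM in labelled MHC-II low libraries. T and NK cell markers summed to between 0.946 and 1.65 CPM in labelled MHC-II high libraries and between 3.20 and 3.39 CPM in labelled MHC-II low libraries. Cd3d, Cd3e, Cd8a and Cd8b1 had no read. Monocyte markers summed to between 607 and 680 CPM in labelled MHC-II high libraries and between 481 and 1121 CPM in labelled MHC-II low libraries, which overlapped. Among them Ccr2, a chemokine receptor, had 160, 229 and 245.5 CPM in labelled MHC-II high libraries, against 515, 762.5 and 285.5 CPM in labelled MHC-II low libraries. The labels of Ccr2 did not overlap, and its log2 fold change of -1.30 was not called by edgeR (adjusted p = 0.219), but was called by DESeq2 (adjusted p = 0.0216) and by edgeR with the GC offset (adjusted p = 0.00172). Plac8 had -1.27 without overlap and F13a1 had 0.52 with overlap. Neutrophil markers, with Ly6g at no read, summed to between 17.3 and 28.2 CPM in labelled MHC-II high libraries and between 17.0 and 34.98 CPM in labelled MHC-II low libraries. Of the macrophage markers, Adgre1, which encodes F4/80, had 337, 321 and 372 CPM in labelled MHC-II high libraries, against 219, 183 and 151 CPM in labelled MHC-II low libraries. Lyz2, the macrophage lysozyme, had 7023, 5900 and 6445 CPM in labelled MHC-II high libraries, against 3689, 3241 and 3222 CPM in labelled MHC-II low libraries. Both lay higher in every labelled MHC-II high library, with log2 fold changes of 0.90 for Adgre1 and 0.93 for Lyz2 that edgeR did not call (adjusted p = 0.132 and 0.122). They were called by DESeq2 (adjusted p = 0.00354 and 7.3e-05) and by edgeR with the GC offset (adjusted p = 0.0239 and 0.0211). Other macrophage markers went the other way: 6 of the 10 had a log2 fold change below 0 in edgeR, and the median was -0.305. Csf1r and C1qb had -0.52 and -0.68, and in both the labels overlapped. With the GC offset edgeR gave Csf1r -0.17 and C1qb -0.12, and the median of the 10 macrophage markers was -0.04. The part of any of these cells in the difference of Gbp8, Gbp9 and Gbp4 was not tested.

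The genes nearest to the mean profile of the members and those nearest to Gbp8 differed. Likeness was the Euclidean distance between log2 CPM values centred on the mean of the 6 libraries, with a prior count of 2 added before the log. Nearest to the mean profile of the 10 members, Gbp8 included, were Fut4, Gm26756, Cd86, Utp14b and Gm44861, at distances from 0.229 to 0.281. The members themselves stood between 0.135 for Gbp3 and 2.66 for Gbp8. Gbp8 pulls that mean down: the log2 fold changes of these nearest genes lay between -0.59 and -0.31, against a median of -0.25 over the members. Nearest to Gbp8 were Slc4a8, H2-DMb2, Plxdc2, Ggt5 and Spint1, at distances from 0.341 to 0.816. Slc4a8 and Ggt5 had few reads, with means of 0.116 and 0.30 CPM in labelled MHC-II high libraries. In labelled MHC-II low libraries they had 1.06 and 1.98 CPM, so their distances are uncertain. The nearest fellow member of Gbp8 was Gbp9, at a distance of 2.32. H2-DMb2, a class II peptide loader, had 1.44 ± 0.467 CPM in labelled MHC-II high libraries and 11.7 ± 3.66 CPM in labelled MHC-II low libraries (SD, n = 3 each). Cd86, a T cell costimulatory ligand, had 81.4 ± 19.3 CPM in labelled MHC-II high libraries and 113 ± 14.7 CPM in labelled MHC-II low libraries.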

How the data were processed

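The deposited values are whole-number read counts per gene, 1 table per library, made by the authors; per the submitters' processing notes the tools were HTSeq and STAR after Trimmomatic and FastQC, with DESeq2, on GRCm38. Counting mode, strand setting and annotation release are not given in the sources used, so overlapping or antisense genes cannot be told apart with certainty. Reads without a feature (35.2% to 49.4% of a library's listed reads), those mapped more than once (7.6% to 17.4%) and ambiguous ones (0.324% to 0.864%) stayed out. Reads in genes per library ranged from 10202879 to 25473051.

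GENCODE M21 gave symbols to 55227 of 55487 genes, and all 10 members were found. Members and gene lists were chosen with earlier results of these data known, and so were the tests and alternatives. The members are named in full. From every other list every called gene was open to naming, and so were up to 4 genes of at least 1 CPM, taken by p, with the other GBP and IRG genes at 10 reads or more in total. Gbp2b, Gbp10, Gbp11, Irf1, Oas2, Trim30a, Cd274, Casp4, Aim2, Gsdmd and the markers at no read fall outside this rule and were named after their values were seen.

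The test was that of edgeR 4.0.16 in R 4.3.3 (TMM scaling, default filter on low counts, quasi-likelihood test on the label alone) over 14140 genes, with Benjamini-Hochberg adjustment and a threshold of 0.05. The SE divides the log2 fold change by the root of F, and 95% intervals use the test's total degrees of freedom, 8.26 for the members. CPM uses TMM-scaled library sizes, and RPKM divides it by the length of merged exons. Alternatives were scaling by total counts or RLE, limma-voom (limma 3.58.1), DESeq2 1.42.0, other filters, the replicate block, a GC offset (local regression, span 0.4) with and without it, dropping mitochondrial and rRNA genes, and dropping each library or batch 3.

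The labels give the number as a batch, so it pairs the libraries. Same-numbered libraries' deviations from their label's mean correlated over genes at 0.159, 0.335 and -0.116 in batches 1, 2 and 3, and the highest correlation with another number was 0.353, -0.0354 and 0.2.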

Additional observations from a re-analysis of the deposited data

How the results depend on the processing

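Under 17 alternatives Gbp8 kept a log2 fold change between -2.98 and -2.29 and the lowest place among the members. It was called in 10 of them, with adjusted p-values from 3.684e-08 to 0.241. The number of members called, 1, became 2 (Gbp8 and Gbp9) with the GC offset, with the GC offset and the replicate block, and without a filter on low counts. It became 0 with the replicate block and without batch 3, where Gbp8 had adjusted p-values of 0.0609 and 0.0791. Leaving out 1 library gave from 0 to 1. The median of the members lay between -0.45 and -0.02, and Gbp8 minus the mean of the other 9 members' fold changes between -2.55 and -2.13.

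Of all tested genes, 50 were lower and 13 higher. DESeq2 called 277 and 121, no filter 436 and 113, the GC offset 240 and 124, and the GC offset with the replicate block 376 and 169. Higher genes numbered 8 with total counts, 1 with the replicate block (40 lower) and 0 without batch 3 (28 lower). Leaving out 1 library gave from 8 to 784 lower and from 0 to 246 higher, the most without labelled MHC-II low replicate 2. In the other lists the 12 calls became 25 with DESeq2, 30 without a filter, 23 with the GC offset, 32 with the GC offset and the replicate block, and from 7 to 40 with 1 library left out.

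No member whose sign turned was called in either fit. Total counts gave Gbp2 0.074, Igtp 0.0061, Irgm1 0.18 and Iigp1 0.072. Irgm2 became -0.0032 with RLE size factors, -0.012 with DESeq2, -0.025 with limma-voom, -0.0042 with the filter at 1 CPM in 3 libraries, -0.16 with the GC offset, -0.16 with the GC offset and the replicate block, and -0.25 without batch 3. With 1 library left out, Gbp2 lay between -0.29 and 0.023, Iigp1 between -0.32 and 0.079 and Irgm2 between -0.16 and 0.15. Among 84 other named genes, 47 of 1423 values had another sign, none called. Among the named genes the replicate block ended the calls of Gbp8, Il1b and Plxdc2, with adjusted p-values of 0.0609, 0.0742 and 0.0742, and changed no other call. The causes of these changes were not tested. The 90 reads of Gbp8 over the 3 labelled MHC-II high libraries are the fewest of any member under either label.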
